A study of Mus musculus with 4 samples.

Results

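The genes described here are 8 genes of the photoreceptor cilium and its surroundings whose loss or mutation is known to cause retinal disease or disturb photoreceptors: Rpgrip1, Rpgr, Cep290, Cep164, Rp1, Rp1l1, Adgrv1 and Syne2. They were chosen by name, and all 8 were present among the 32285 genes of each count matrix. Their levels were measured by droplet-based single-cell RNA sequencing of dissociated mouse retina at postnatal day 30 (30 days of age). The 4 libraries came from 1 retina each of a wild-type (WT) female, a WT male, an NLGF female and an NLGF male. NLGF mice are known as a knock-in line whose own App gene carries a humanised and mutated amyloid beta sequence, so that the amyloid precursor protein is made under its native promoter in every cell that uses it. The labels do not say whether the NLGF mice carried the allele on both chromosomes. The labels name no deletion and no agent in any group. With 2 animals per genotype, p-values for genotype measure the spread between single animals of different sex.

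Rods and cones carry one modified primary cilium each: a basal body, a narrow connecting cilium that acts as a transition zone, and a microtubule axoneme that runs into the outer segment with its stacked membrane discs. All outer segment protein is made in the inner segment and passes through the connecting cilium. Defects at this gate are a common cause of inherited blindness, among them retinitis pigmentosa, Leber congenital amaurosis and the retinal part of Usher syndrome.

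Among the members, Rpgrip1 is the scaffold that anchors RPGR in the connecting cilium, Rpgr is the X-linked retinitis pigmentosa GTPase regulator, and Cep290 builds the links between microtubules and membrane in the transition zone. Cep164 is a distal appendage protein that docks the basal body at the membrane. Rp1 and its paralog Rp1l1 are doublecortin-domain proteins of the axoneme. Adgrv1 is the very large adhesion receptor of Usher syndrome type II, at the periciliary membrane. Syne2 encodes nesprin-2, a LINC complex protein of the nuclear envelope that positions photoreceptor nuclei.

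On GRCm38, GENCODE places Rpgrip1 at chromosome 14, 52110704 to 52163546 (plus strand), Rp1l1 at chromosome 14, 63992506 to 64035025 (plus strand), and Cep290 at chromosome 10, 100487558 to 100574840 (plus strand). Syne2 lies on chromosome 12, 75818134 to 76110926 (plus strand). Rp1 lies on chromosome 1, 3999557 to 4409241, Adgrv1 on chromosome 13, 81095068 to 81633154, Cep164 on chromosome 9, 45766946 to 45828691, and Rpgr on chromosome X, 10073621 to 10216920, all on the minus strand. Adgrv1 spans 538087 bases and Rp1l1 42520. All members but Rp1l1 overlap another annotated gene, so reads in those stretches could be shared. Rp1 (Gm6101, Gm37483), Cep164 (2610028D06Rik), Rpgr (Srpx) and Syne2 (Mir5101) do so on their own strand, Rpgrip1 (Supt16) and Cep290 (4930430F08Rik) on the other, and Adgrv1 on both (9330111N05Rik, Gm48566, Gm48567).

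RefSeq promoters on GRCm38.p6, from 250 bases before to 50 bases after the start, were found for 6 of the 8 members, with 7 entries. They were searched for TAATCC and its reverse complement GGATTA, the letters known as the core bound by CRX and OTX2, the homeodomain factors of photoreceptors. The letters stood in 2320 of 32851 promoter entries (7.06%), and in 2 of the 7 member entries, those of Rpgrip1 and Adgrv1. These are shown in full because they are the member promoters that hold the letters, in capitals, 5′ to 3′ on the strand of the gene. Rpgrip1 lies at chr14:52110653-52110952 on the plus strand, with the match starting at position -28 from the start. Adgrv1 lies at chr13:81633095-81633394 on the minus strand, with the match starting at position 8 after the start.
Rpgrip1: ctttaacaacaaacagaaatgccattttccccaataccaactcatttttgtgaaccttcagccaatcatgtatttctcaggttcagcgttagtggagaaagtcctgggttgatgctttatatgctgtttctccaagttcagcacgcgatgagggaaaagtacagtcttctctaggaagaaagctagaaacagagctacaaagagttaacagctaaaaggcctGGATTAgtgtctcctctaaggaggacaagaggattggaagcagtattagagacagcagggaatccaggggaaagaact
Adgrv1: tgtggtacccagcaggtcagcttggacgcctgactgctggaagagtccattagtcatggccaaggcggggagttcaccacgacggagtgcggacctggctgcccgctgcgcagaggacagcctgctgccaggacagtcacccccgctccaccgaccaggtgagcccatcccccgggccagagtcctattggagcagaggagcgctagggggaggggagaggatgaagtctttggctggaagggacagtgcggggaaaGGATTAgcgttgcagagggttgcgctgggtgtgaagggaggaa
Both copies read GGATTA on the strand of the gene. A match describes letters only; no binding was measured.

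The files held 35191 barcodes with 85860041 unique molecular identifiers (UMIs), from 19128388 to 23473093 per library. After filtering, 31329 cells in 20 clusters remained, and classes were named from marker genes, so each name reads as rod-like, cone-like and so on. Rods numbered 25192, from 5792 to 6632 per library. The other classes were cones (683 cells), rod bipolar (702), cone bipolar (1408), amacrine (595), Müller glia (1441), endothelial (88) and microglia (79), and 3 clusters stayed unnamed. Across libraries, 132 barcodes occurred more than once among 35059 distinct ones. The WT male stood apart: the median mitochondrial share of its rods was 4.38% of UMIs, against 2.56% to 3.02% in the others. Among the rods were 4 barcodes, 1 per library, in which at least 50% of UMIs came from red blood cell genes.

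Rods were divided into quartiles by the share of their UMIs that came from mitochondrially encoded genes, with edges at 1.70%, 3.12% and 7.96%. The edges ran through dense ranges, with 1179, 600 and 209 rods within 0.1 percentage points of each. Levels are given as CPM, the UMIs of a gene scaled to the summed UMIs of a library with mitochondrial genes left out. Where 4 values stand in a row, both WT animals come first and both NLGF animals second, the female before the male each time. Between the outer quartiles, 5 members were higher in rods of low mitochondrial share, 2 were lower, and Adgrv1 missed the threshold. These calls stand against a background in which 60.8% of the 10457 genes tested differed, 30.2% higher and 30.6% lower, so a call by itself says little about a member.

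Rpgr and Rpgrip1 of the connecting cilium had the largest differences of the 8. Rpgrip1 had 2831, 3265, 2977 and 2689 CPM in the lowest quartile, and 1002, 976, 1190 and 1134 CPM in the highest. Every low-quartile value lay above every high-quartile value, and the log2 fold change was 1.01 ± 0.09 (SE, n = 4 libraries, edgeR adjusted p = 1.62e-13).

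Rpgr fell further across the quartiles. It had 148, 178, 161 and 155 CPM in the lowest quartile, and 44.6, 40.3, 49.4 and 55.6 CPM in the highest. The WT male held both the highest value of the low quartile and the lowest of the high quartile. The log2 fold change was 1.32 ± 0.10 (edgeR adjusted p = 3.39e-15).

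Cep290 differed less than its neighbours in the transition zone. Its mean was 758 ± 78.9 CPM in the lowest quartile and 466 ± 36.9 in the highest (SD, n = 4), with the ranges 655 to 839 and 432 to 509 CPM apart. On the scale of the test the log2 fold change was 0.25 ± 0.08 (edgeR adjusted p = 0.00456). Cep164 of the basal body lay between, with 521, 603, 609 and 574 CPM in the lowest quartile against 256, 254, 331 and 291 in the highest, a log2 fold change of 0.59 ± 0.08 (edgeR adjusted p = 1.70e-08).

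The axonemal paralogs went opposite ways. Rp1 fell from 5102 ± 198 CPM in the lowest quartile to 3161 ± 161 in the highest (SD, n = 4), and its log2 fold change on the scale of the test was 0.25 ± 0.08 (edgeR adjusted p = 0.0119). Without the WT female, the NLGF female or the NLGF male the call was lost with a larger SE, at similar values of 0.23 ± 0.12, 0.25 ± 0.12 and 0.25 ± 0.12 (edgeR adjusted p = 0.128, 0.0910 and 0.0637). Rp1l1 had 287, 290, 272 and 282 CPM in the lowest quartile, and 333, 340, 370 and 358 in the highest. It was the member whose 4 low-quartile values all lay below all 4 high-quartile values, with a log2 fold change of -0.75 ± 0.08 (edgeR adjusted p = 3.68e-11).

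Adgrv1 did not pass and Syne2 was lower in the lowest quartile, and both varied widely between libraries. Adgrv1 had 204, 289, 249 and 234 CPM in the lowest quartile, and 154, 148, 164 and 167 in the highest. Its log2 fold change was 0.17 ± 0.08 (edgeR adjusted p = 0.0682), and it passed when the NLGF male was left out (0.22, edgeR adjusted p = 0.0428). Syne2 had 308, 447, 397 and 370 CPM in the lowest quartile and 296, 333, 371 and 384 in the highest, so the groups overlapped. Its log2 fold change was -0.32 ± 0.08 (edgeR adjusted p = 6.71e-04).

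The direction for Syne2 depended on the scaling. With TMM factors the median over all genes tested was 0.04 and Syne2 lay below 0. Plain library totals moved the median of all genes to 0.48 and gave Syne2 0.13 ± 0.08 (edgeR adjusted p = 0.111). On library totals 5794 genes were higher and 1711 lower, against 3157 and 3197 with TMM, and 6 members were higher and 1, Rp1l1, lower. Rp1l1 then had -0.31 and Adgrv1 0.62 (edgeR adjusted p = 2.66e-04 and 9.58e-11). Relative to the median of all genes, Rpgrip1, Rpgr and Cep164 were higher and Rp1l1 and Syne2 lower on both scales. The change of scaling moves all genes by nearly the same amount, so positions relative to the median could hardly differ between the scales. Their agreement is therefore no separate evidence for a direction.

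**Figure D1:**
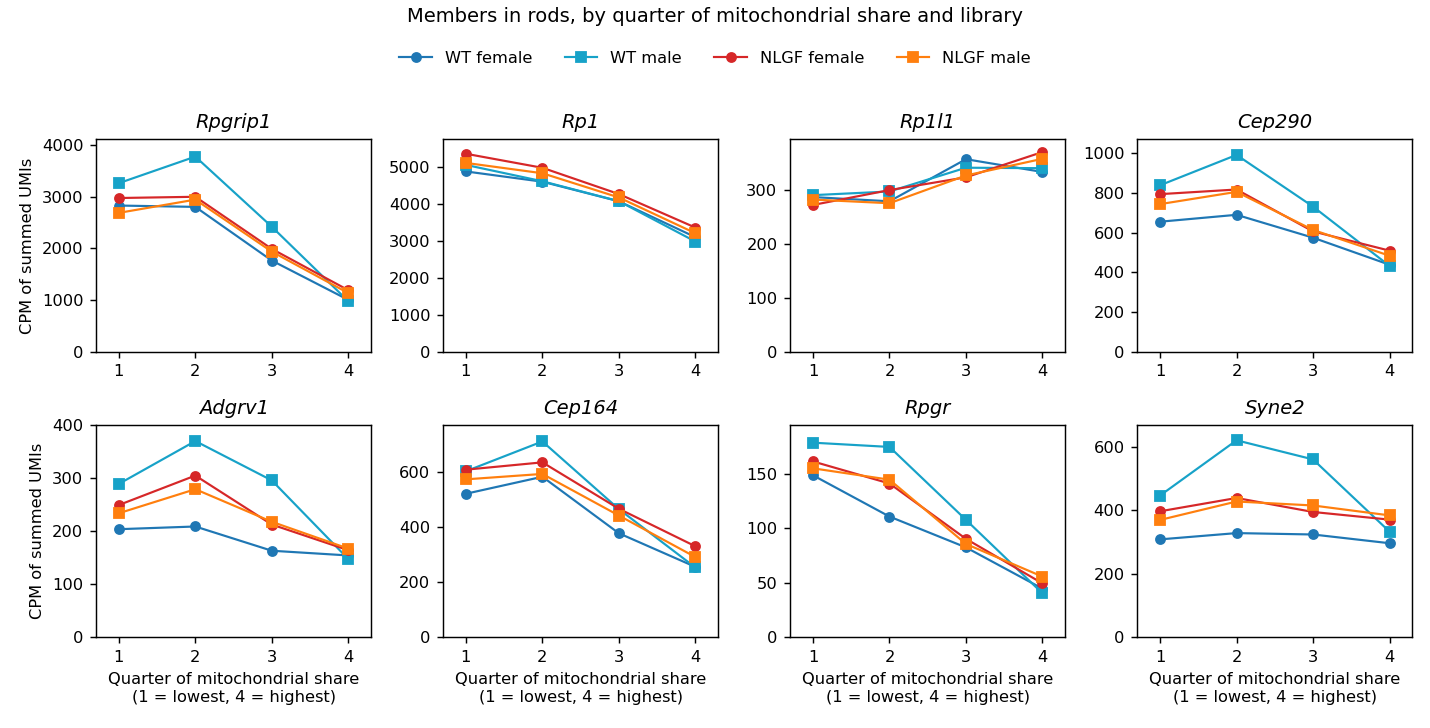
CPM of each member (y axis) in rods by quartile of mitochondrial share (x axis, 1 lowest to 4 highest), with 1 line per library; circles are females and squares males. From the lowest to the highest quartile Rpgr falls from 161 ± 12.8 to 47.5 ± 6.57 CPM (mean ± SD, n = 4) and Rp1l1 rises from 283 ± 7.88 to 350 ± 16.8. Rpgrip1 has 2940 ± 246 in the lowest and 1075 ± 103 in the highest, but its highest mean is in the second (3133 ± 439). Cep290, Cep164, Adgrv1 and Syne2 also have their highest mean in the second quartile. There the WT male lies highest for Rpgrip1, Rpgr, Cep290, Cep164, Adgrv1 and Syne2.

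The quartiles differed in more than mitochondrial share. Rods of the highest quartile had median totals of 1747 to 2125 UMIs per library, against 772 to 897 in the lowest. The 10 rod markers summed to between 44220 and 48520 CPM in the lowest quartile and between 86280 and 90360 in the highest, with none of the 10 at 0. Malat1, a long RNA that stays in the nucleus, had 123200 to 131400 CPM in the lowest quartile and 20020 to 32090 in the highest, a log2 fold change of 1.75 ± 0.12 (edgeR adjusted p = 1.51e-16). The red blood cell list had 7236, 8085, 3673 and 26.2 CPM in the lowest quartile and 12.9 to 49.8 in the highest, and the NLGF male had 1749 in the third; each library held 1 of the barcodes dominated by these genes. The part of any of these in the members' differences was not tested.

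Split by depth, most members passed between quartiles in the deeper rods and few in the shallow ones. In rods with at least 1000 UMIs (10412 cells), Rpgrip1 had 2684, 2889, 2689 and 2457 CPM in the lowest quartile, and 614, 693, 814 and 810 in the highest. In rods under 1000 UMIs (14780 cells) it had 2994, 3843, 3340 and 3060 CPM in the lowest quartile and 2954, 4211, 3316 and 3257 in the highest. In shallow rods the values of the outer quartiles overlapped, whereas in deep rods they did not. The deep mean was 2484 CPM in the second quartile and 1274 in the third.

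Rpgr had a similar course. In deep rods it went from 173 ± 18.4 CPM in the lowest quartile to 32.2 ± 5.03 in the highest (SD, n = 4). In shallow rods it had 144 ± 13.1 and 150.0 ± 15.0 CPM. The log2 fold changes in deep rods were 1.38 ± 0.08 for Rpgrip1, 1.94 ± 0.12 for Rpgr, 0.69 ± 0.08 for Cep164, 0.34 ± 0.07 for Rp1 and 0.28 ± 0.07 for Cep290. Rp1l1 and Syne2 had -0.86 ± 0.08 and -0.48 ± 0.08, and these 7 passed the threshold there, as did 5993 of all 9757 genes tested, whereas Adgrv1 had 0.14 ± 0.09 (edgeR adjusted p = 0.178).

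In shallow rods 134 of 7137 genes passed, and 2 members among them: Rp1 with 0.17 ± 0.04 and Syne2 with -0.35 ± 0.08. The other members had -0.03 ± 0.04 (Rpgrip1), -0.05 ± 0.13 (Rpgr), -0.04 ± 0.07 (Cep164), -0.09 ± 0.10 (Rp1l1), -0.14 ± 0.06 (Cep290) and -0.30 ± 0.09 (Adgrv1). The deep and the shallow difference were not tested against each other. Malat1 had 131600 ± 3403 and 111200 ± 9638 CPM in the outer quartiles of shallow rods and 124500 ± 4313 and 15600 ± 3181 in those of deep rods (SD, n = 4).

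**Figure D2:**
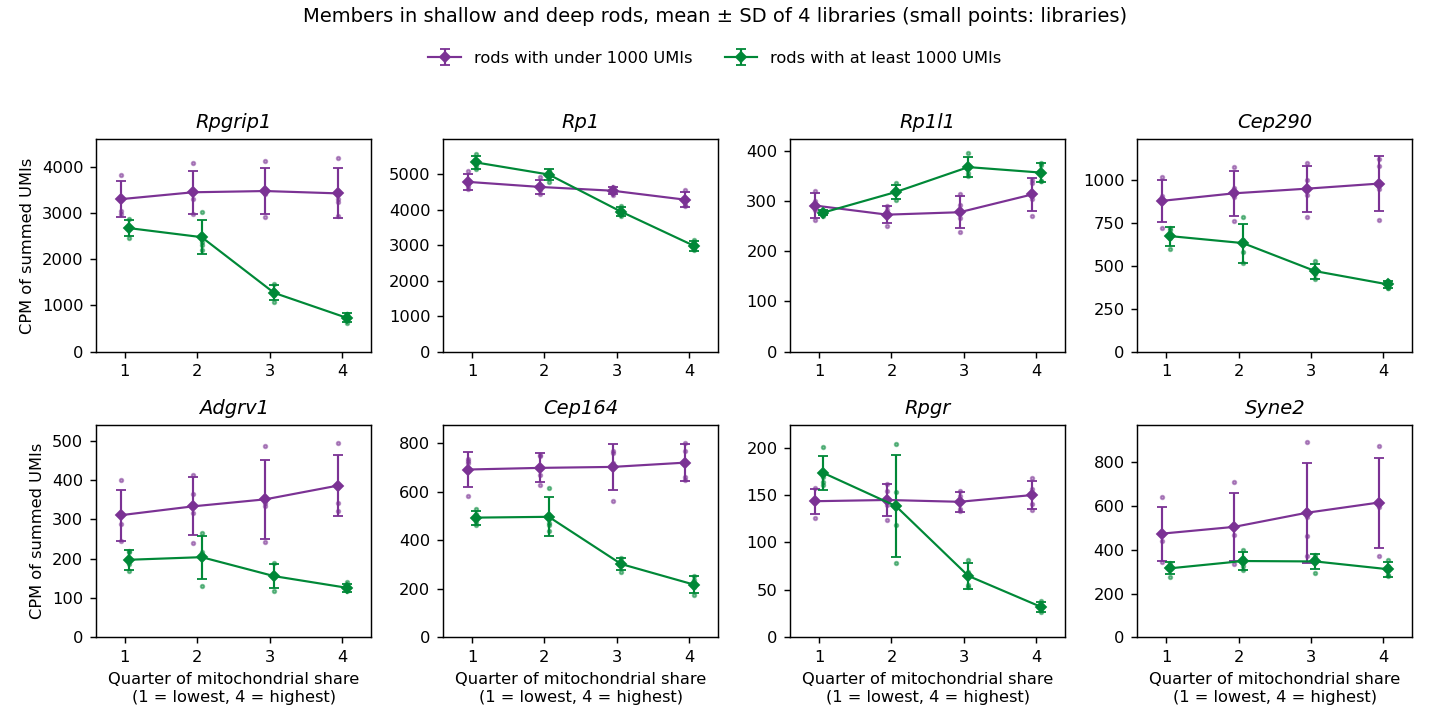
CPM of each member (y axis) by quartile of mitochondrial share (x axis), separately for rods under 1000 UMIs and with at least 1000 UMIs; diamonds and bars are the mean ± SD of 4 libraries and small points the libraries. In deep rods Rpgrip1 drops from 2680 to 733 CPM and Cep164 from 494 to 218, while in shallow rods they stay near 3309 to 3435 and 692 to 721 CPM.

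The other genes of the cilium are given by list, to be read beside the 30.2% higher and 30.6% lower over all genes; no difference between lists was tested. Of 25 connecting cilium and transition zone genes tested, 17 were higher and 4 lower in the lowest quartile, with a median log2 fold change of 0.34 beside 0.04 over all genes. Rpgr led, followed by Spata7, an RPGRIP1 partner mutated in Leber congenital amaurosis (1.06 ± 0.12, edgeR adjusted p = 2.65e-10), and Rpgrip1. Of 16 basal body and centriole genes, 7 were higher and 2 lower (median 0.34). They were led by Sclt1, a distal appendage protein like Cep164 (1.03 ± 0.09), Odf2, a scaffold of the appendages (0.87 ± 0.13), and Poc1b, a centriole protein (0.82 ± 0.14).

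Among 12 axoneme and outer segment disc genes 5 were higher and 6 lower in the lowest quartile (median -0.42). The largest differences in the list were those of Cdhr1, a cadherin at the disc base (-1.89 ± 0.08), Rom1 (-1.78 ± 0.10) and Prph2, the peripherin of the disc rim (-1.23 ± 0.09). Of 10 genes listed for transport of lipidated or other cargo to the cilium, 0 were higher and 7 lower (median -1.09). Arl3, the small GTPase that releases lipidated cargo, had -1.76 ± 0.09, Reep6 -1.68 ± 0.08, and Arl2bp, an ARL3 effector, -1.39 ± 0.12.

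The transport trains were mixed. Of 25 intraflagellar transport genes, 6 were higher and 10 lower (median -0.10), led by Hspb11 (-1.49 ± 0.16), Ift43 (-1.42 ± 0.10) and Ift27 (-1.28 ± 0.14), which encode small subunits of the train. Of 13 genes of the BBSome and its chaperones, 4 were higher and 3 lower (median -0.02), with Bbs12 at 1.19 ± 0.13, Arl6, the GTPase that recruits the BBSome, at -0.68 ± 0.08, and Bbs9 at 0.58 ± 0.08. Of the Usher list 5 of 11 genes were tested, and 3 were higher and 1 lower (median 0.26). Among the higher were the cadherin Pcdh15 (1.07 ± 0.08) and the scaffold Whrn (0.40 ± 0.10), and the lower one was the motor Myo7a (-0.81 ± 0.23).

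For nuclear genes, 7 of the LINC complex and lamina list were tested, with Lmnb2 higher (0.49 ± 0.18) and Syne2 lower. Of 6 nucleus-retained RNAs tested, 3 were higher: Malat1, Kcnq1ot1 (1.34 ± 0.09) and Neat1 (1.23 ± 0.23). Their median was 0.74. Gene length moved with the difference too: over deciles of genes ordered by genomic span, the median log2 fold change went from -0.03 in the shortest and -0.17 in the next to 0.20 in the longest decile. The longest decile holds Rp1, Adgrv1, Rpgr and Syne2. Whether retention in the nucleus or length had a part in the members' values was not tested.

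The 8 members had been left out of the clustering. One rod cluster, here called led by members, was picked because it had the most members among its top 10 genes by fold. High levels there of the members in that top 10 follow from the choice and are no separate result. Among the top 10 genes of this cluster were Syne2, Gm26917, Adgrv1, Frmpd2, Rpgrip1, Pla2r1, Gm42716, Rnf207 and Cep164. It held 2.91%, 21.1%, 8.98% and 12.9% of the rods of the 4 libraries. The males had larger shares than the females, and the WT libraries lay at both ends. Its median totals were 682 to 744 UMIs per library, so most of its cells had fewer than 1000 UMIs.

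Relative to the other rods of the same library, Adgrv1 was 3.85 to 4.80 times as high in that cluster, Syne2 3.81 ± 0.721 times (mean ± SD), Rpgrip1 2.68 to 3.71 times, Cep290 2.45 to 3.07 times and Cep164 2.33 to 2.85 times. Rpgr ranged from 1.36 to 2.94 times, with the WT female lowest. Rp1 had 1.11 to 1.25 times and Rp1l1 0.960 to 1.13 times, so the axonemal paralogs differed little there from the other rods. These ratios describe a cluster that was picked by its leading members, and they carry no test. The rod markers summed to 33800 to 37610 CPM there, and the 11 Müller glia markers to 613 to 807 CPM, against 64490 to 75610 and 391 to 413 CPM in the other rods. The rise was not particular to Müller markers. On average every other cell type list but that of red blood cells was higher there too, such as retinal ganglion (77.1 against 37.9 CPM) and rod bipolar (702 against 515).

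With this cluster left out, Adgrv1 in the other rods ranged from 164 to 191 CPM and Syne2 from 299 to 340 over the 4 libraries, against 178 to 237 and 313 to 449 CPM in all rods. The comparison of quartiles then gave 6 members higher, Adgrv1 among them (0.20, edgeR adjusted p = 0.0331), and 2 lower. Of all 10394 genes tested in that fit, 3184 were higher and 3191 lower, so these calls too say little about a member.

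**Figure D3:**
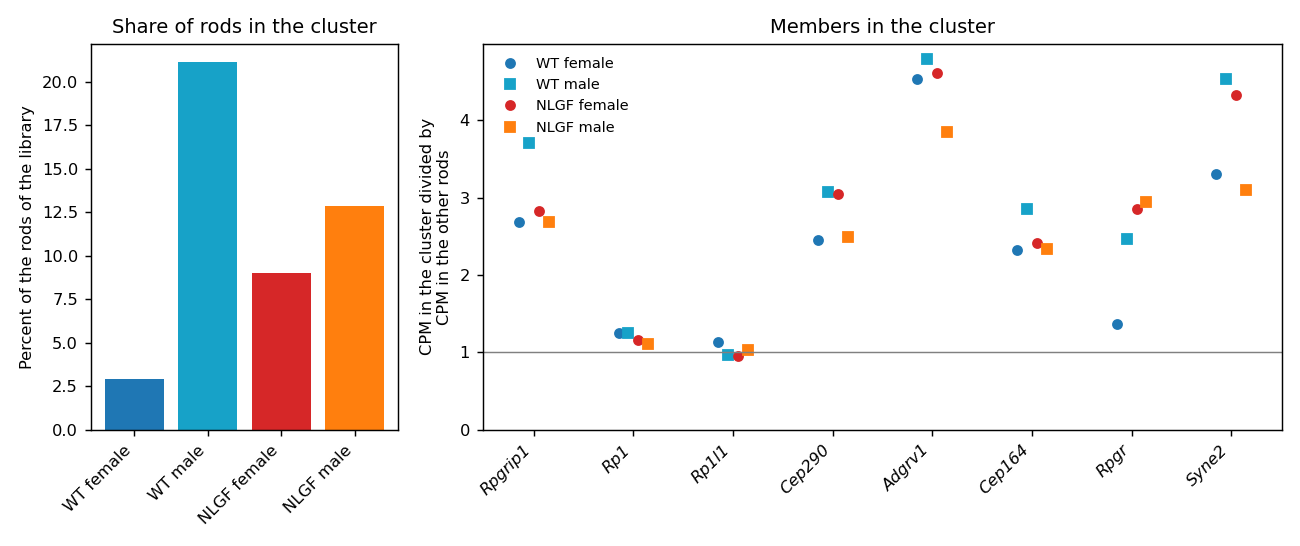
Left, share of the rods of each library (y axis, percent) that fell in the rod cluster led by members; right, CPM of each member in that cluster divided by its CPM in the other rods of the same library (y axis). The share runs from 2.91% in the WT female to 21.1% in the WT male, and the ratio lies near 1 for Rp1 and Rp1l1 and highest for Adgrv1 and Syne2. The cluster was picked by the members among its leading genes, so high ratios of those members follow from the choice.

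Outside rods, each level was read against the rod markers, whose UMIs were found in every class. Free RNA, doublets and the naming of clusters were not separated as their source. The sum of the 10 rod markers in rod bipolar, cone bipolar, amacrine, Müller and endothelial cells was 2.59% to 5.26% of its level in rods on average, in microglia 19.1% ± 12.8 and in cones 31.2% ± 9.31 (SD, n = 4 libraries). A member was taken as above that level where its own percentage was more than 2 times that of the rod markers in all 4 libraries. Classes came from clusters of the same cells, so these are descriptions without a test.

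Rpgrip1, Rp1, Rp1l1, Cep290 and Cep164 had their highest means in rods and cones. In cones Rpgrip1 had 1359, 1415, 1284 and 1366 CPM, 65.2% ± 5.49 of the level in rods. Rp1l1 had 365, 329, 362 and 338 CPM in cones, 109% ± 6.63 of the level in rods, and was the member above the rod markers there in all 4 libraries. Rp1 had 1202, 895, 1350 and 1009 CPM in cones, 26.9% ± 3.62 of the level in rods, which is not above the rod markers. In no other class was Rp1 or Rp1l1 above the rod markers in all 4 libraries.

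In cone bipolar cells Rpgrip1 was also above the rod markers. There it had 314, 347, 380 and 331 CPM, 16.4% ± 0.575 of the level in rods beside 5.03% ± 0.460 for the rod markers. In rod bipolar and amacrine cells it had 90.4 ± 21.5 and 90.1 ± 13.5 CPM, near the rod-marker level.

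Cep290 and Rpgr were spread over the retinal neurons. Rpgr had 70.0, 99.7, 75.2 and 80.6 CPM in rod bipolar cells, 78.5, 81.5, 73.8 and 71.1 in cone bipolar cells and 52.1, 59.9, 73.1 and 60.1 in amacrine cells, against 90.7, 95.2, 109 and 106 in rods. In the WT male, rod bipolar cells exceeded rods (105%), and over libraries the 3 interneuron classes had 81.7% ± 15.7, 76.7% ± 10.7 and 61.1% ± 5.01 of the level in rods. In cones it had 60.1% ± 4.82, in Müller glia 13.6% ± 0.617. Neighbours in the order rod bipolar, cone bipolar, amacrine and cone overlapped in their spread.

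Cep290 had 246 ± 27.5 CPM in cone bipolar, 177 ± 19.8 in rod bipolar and 134 ± 7.85 in amacrine cells, or 38.8%, 27.8% and 21.3% of the level in rods, and these classes did not overlap. Cones had 457 ± 11.1 CPM. Cep164 had 54.2 ± 9.20 CPM in cone bipolar and 58.2 ± 4.53 in amacrine cells, both above the rod markers, and 24.6% ± 1.36 of the level in rods in cones, where it was not.

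In Müller glia Adgrv1, Syne2 and Rpgr were above the rod markers, and in endothelial cells Syne2 and Cep290 (10.4% ± 4.07 of the level in rods, from 10 to 17 UMIs per library). Adgrv1 in Müller glia had 118, 110, 102 and 108 CPM, 51.8% ± 9.90 of the level in rods, the highest mean of the classes outside rods. It was also above the rod markers in cone bipolar (63.4 ± 4.57 CPM), rod bipolar (36.8 ± 7.60) and amacrine cells (23.6 ± 4.43), and had 1 or 2 UMIs per library in endothelial cells. Syne2 in endothelial cells had 293, 282, 285 and 237 CPM from 77, 80, 27 and 63 UMIs, 72.0% ± 15.4 of the level in rods. In Müller glia it had 97.5 ± 9.76 CPM (25.4% ± 3.54), and in rod bipolar and amacrine cells 4.48% and 5.36% of the level in rods. In microglia none of the 8 members was above the rod markers in all 4 libraries, with 0 to 48 UMIs per library and member.

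**Figure D4:**
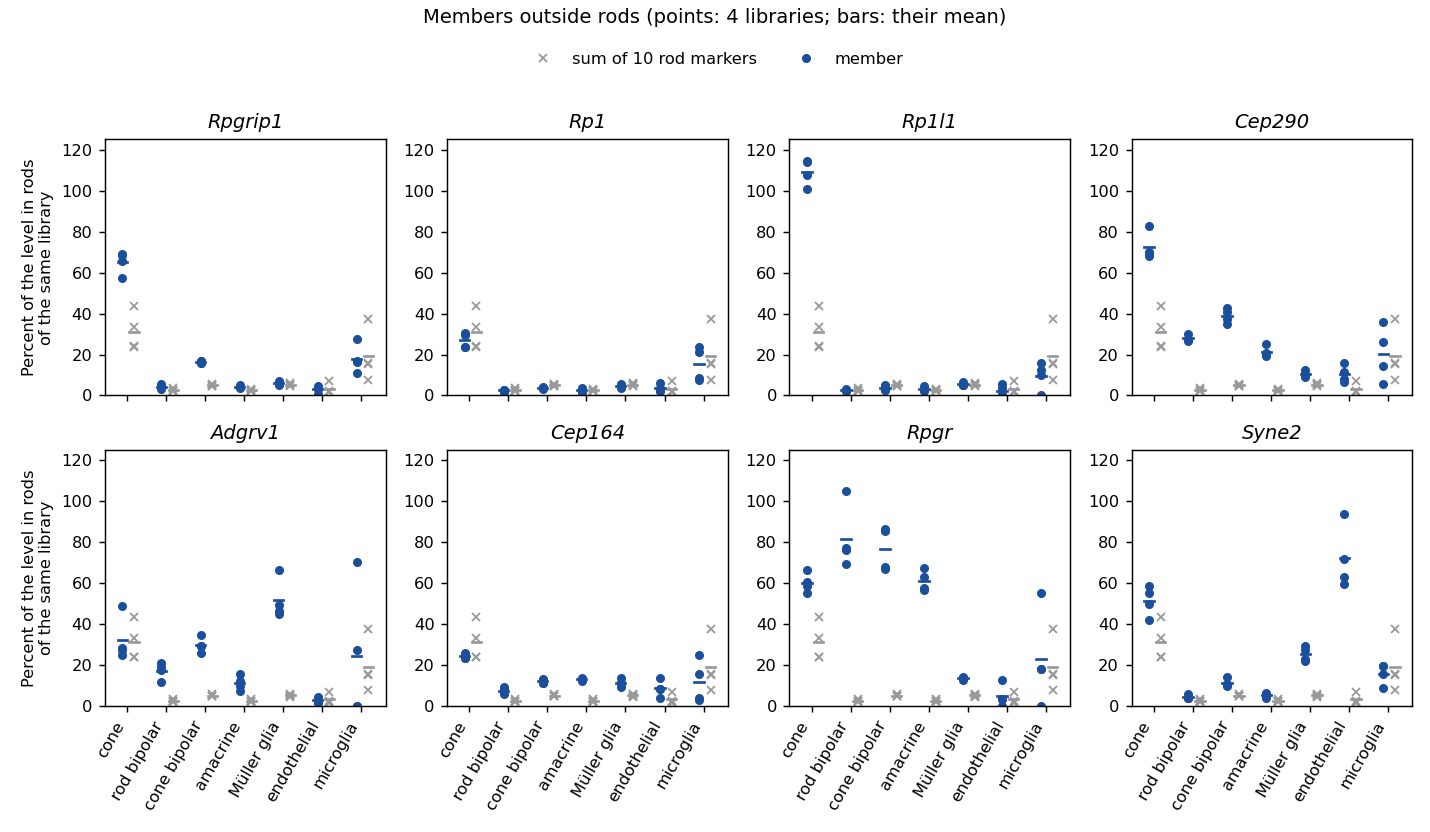
Level of each member in 7 classes as a percentage of its level in rods of the same library (y axis; blue points are the 4 libraries, bars their mean), beside the same for the sum of 10 rod markers (grey crosses). Rpgr stands at 61.1% to 81.7% in bipolar and amacrine cells, Adgrv1 at 51.8% in Müller glia and Syne2 at 72.0% in endothelial cells, while Rp1 stays at the rod-marker level everywhere.

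NLGF was compared with WT over library sums. In all rods none of the 8 members passed, and 1 of 12371 genes did (0.00808%; 996 genes had an unadjusted p under 0.05, and DESeq2 called 1). Rpgr had 90.7 and 95.2 CPM in the WT female and male and 109 and 106 in the NLGF female and male, a log2 fold change of 0.15 ± 0.09 (edgeR adjusted p = 0.667). Cep164 had 411 and 421 CPM in WT and 501 and 461 in NLGF, 0.15 ± 0.10 (edgeR adjusted p = 0.699). Rp1 had 4049 and 3768 CPM in WT and 4460 and 4260 in NLGF, 0.10 ± 0.09 (edgeR adjusted p = 0.80).

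These genes had both NLGF values above both WT values, as did Rpgrip1 (1962 and 2060 against 2239 and 2089 CPM) and Cep290 (572 and 645 against 673 and 646 CPM). Rp1l1 had both below (319 and 327 against 317 and 314 CPM). Over all genes tested, 28.7% had both NLGF libraries above both WT libraries and 12.7% had both below. The log2 fold changes of Rpgrip1, Cep290 and Rp1l1 were 0.05 ± 0.10, 0.06 ± 0.10 and -0.09 ± 0.09.

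Adgrv1 and Syne2 had the WT libraries at both ends. Adgrv1 had 178 and 237 CPM in the WT female and male and 227 and 219 in the NLGF pair, and Syne2 313 and 449 against 397 and 396. Their log2 fold changes were 0.04 ± 0.13 and -0.0034 ± 0.15. The sign for Syne2 depended on the WT library: the value was -0.27 without the WT female (edgeR adjusted p = 0.0279) and 0.31 without the WT male (edgeR adjusted p = 0.0461). Each of these fits has 1 WT library, which is assumed to vary like the NLGF libraries, so neither is read as a difference between genotypes. Without the rod cluster led by members it had 0.054 and did not pass.

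Within quartiles the members again did not pass. In the lowest quartile 5 of 10157 genes passed (0.0492%), and the members ranged from -0.13 ± 0.08 for Rpgrip1 to 0.05 ± 0.06 for Rp1. Of them 1 had both NLGF values above both WT values (20.7% of all genes) and 1 both below (14.5%). In the highest quartile 0 of 9613 genes passed (0%; 772 had an unadjusted p under 0.05 and DESeq2 called 0).

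In the highest quartile all 8 members had both NLGF values above both WT values, beside 25.8% of all genes tested, and the median of their log2 fold changes was 0.16 beside 0.01 over all genes. The members share these 4 libraries and are not independent of each other. Rpgr had 44.6 and 40.3 CPM in the WT female and male and 49.4 and 55.6 in the NLGF female and male (0.27 ± 0.14, edgeR adjusted p = 0.662). Cep164 had 256 and 254 against 331 and 291 CPM (0.23 ± 0.10, 0.586), Syne2 296 and 333 against 371 and 384 (0.20 ± 0.10, 0.639), and Rpgrip1 1002 and 976 against 1190 and 1134 (0.18 ± 0.09, 0.633). Cep290 had 0.13 ± 0.09, Adgrv1 0.08 ± 0.09, Rp1 0.06 ± 0.08 and Rp1l1 0.06 ± 0.10.

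The highest quartile held 22.9%, 33.9%, 20.7% and 22.0% of the rods of the 4 libraries, and the part of these shares in the values was not tested. The difference of the genotype effect between the lowest and the highest quartile passed for 1 of 10457 genes (0.00956%) and for none of the members. It was -0.29 ± 0.16 for Rpgrip1 and -0.32 ± 0.19 for Rpgr (edgeR adjusted p = 0.822 each), and DESeq2 called 0 genes.

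**Figure D5:**
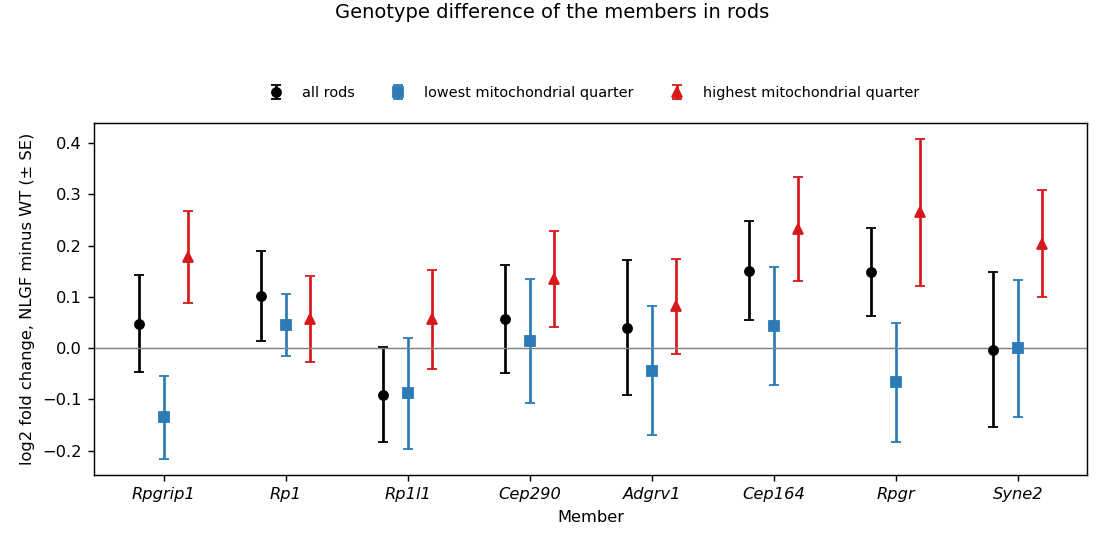
log2 fold change of NLGF over WT (y axis, ± SE, 2 libraries per genotype) for each member in all rods, in the lowest and in the highest mitochondrial quartile. In the highest quartile all 8 values lie above 0, from 0.06 for Rp1l1 to 0.27 for Rpgr, and none passed the threshold.

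In the other classes no member passed either. The share of genes called was 0% in cones, rod bipolar cells and microglia, 0.0260% in cone bipolar, 0.00894% in amacrine, 0.0962% in endothelial cells and 0.971% in Müller glia. At an unadjusted p under 0.05 there were 532 genes in cones, 588 in rod bipolar cells and 91 in microglia, and DESeq2 called 0 in each. Members ranged from -0.25 ± 0.20 (Adgrv1) to 0.25 ± 0.12 (Syne2) in cones, and from -0.34 ± 0.22 (Adgrv1) to 0.34 ± 0.16 (Rp1) in rod bipolar cells. In cone bipolar cells they ranged from -0.16 ± 0.11 (Rpgr) to 0.38 ± 0.13 (Cep164), with Cep164 at 45.4 and 48.1 CPM in WT and 65.3 and 58.2 in NLGF (edgeR adjusted p = 0.721).

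In Müller glia, where 108 of 11122 genes passed, the members ranged from -0.33 ± 0.27 (Rp1l1) to 0.15 ± 0.30 (Rpgr). Adgrv1, whose highest mean outside rods was in Müller glia, had 118 and 110 CPM there in WT against 102 and 108 in NLGF. In amacrine cells the lowest member was Rp1 at -0.59 ± 0.16 (edgeR adjusted p = 0.472), from 107 and 145 CPM in WT to 86.4 and 80.6 in NLGF. The rod markers there were 2.62% and 3.35% of the level in rods in WT and 2.12% and 2.27% in NLGF, so they too were lower in NLGF. In microglia 2 members were tested, and Rp1 had 1.68 ± 0.45 (edgeR adjusted p = 0.186), with rod markers at 15.4% and 7.78% of the level in rods in WT and 15.6% and 37.4% in NLGF. In endothelial cells 5 members were tested, from -0.65 ± 0.44 (Rpgrip1) to 0.31 ± 0.41 (Rp1).

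Over 32 points, 8 classes by 4 libraries, the genes most like each member were named by Pearson's r of log2(CPM + 1) among 10510 genes. The points share libraries and the r values carry no test. For Rpgrip1 they were Gucy2e, the photoreceptor guanylate cyclase, Mpp4 and Ankrd33b (r from 0.958 to 0.963), and for Rp1 Pdzph1, Pdc (phosducin) and Rdh12, a retinol dehydrogenase (0.966 to 0.976). For Rpgr they were Dmxl2, Slc25a22 and Cul9 (0.903 to 0.963), for Cep290 Capn7, Tub and Prmt7 (0.921 to 0.926), and for Rp1l1 Gm17231, Uckl1os and Tmem136 (0.882 to 0.901). Syne2 was most like Cpt1a, Vtn and Hadha (0.896 to 0.921), Cep164 like Ccdc126, Glmn and Esrrb (0.891 to 0.896), and Adgrv1 like Gm26621, Yipf2 and Amn1 (0.859 to 0.901). Among the members themselves, r ran from -0.283 between Rpgr and Syne2 to 0.881 between Rpgrip1 and Rp1.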

How the data were processed

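Single-cell suspensions of 4 mouse retinas (2 WT, 2 NLGF) were run on a droplet platform, 1 library per retina, per the labels' protocols. The values the authors deposited are unnormalised UMI counts. Per the file headers the matrices were written by Cell Ranger 6.1.1; Cell Ranger 3.1.0, STAR and mm10 stand in the submitters' processing notes. The use of intronic reads and of read strand in counting was not stated there. Gene positions came from GENCODE M21 on GRCm38, where 32158 of 32285 gene IDs matched.

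Cells needed 300 genes or more and no more than 20% mitochondrial UMIs (33329 barcodes). Scrublet's automatic threshold marked 2 doublets, too few for a working call, so the highest-scoring 6% of each library were removed. Cells were scaled to 10000 UMIs and clustered with scanpy 1.11.5 (2000 variable genes, 30 components, 20 neighbours, resolution 1), without the 8 members and the mitochondrial genes. Clusters were named from marker lists. Rules set after the data were seen left unnamed a tie of marker classes, a marker score under 0.8 where no own marker was among the top 10 genes, and a cluster of another class with rod markers at 0.5 of their level in rods or more. Cone bipolar clusters of 250 and 277 cells, with scores of 0.271 and 0.6, kept their name through 1 marker each in the top 10. Rod clusters of 9793, 2888 and 37 cells had 0 rod markers in the top 10 and kept their name through scores of 1.23, 1.05 and 1.17. Their rod markers stood at 0.63, 0.54 and 0.60 times the level over all rods, beside 0.62 times in an unnamed cluster of 467 cells. The cluster of 2888 cells is the one led by members, so the name rod is less firm in these clusters. The Müller class joined a deep cluster and a shallow one, in which the rod markers stood at 0.244 times their level in rods.

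UMIs were summed per library and class or quartile, mitochondrial genes left out, and tested with edgeR 4.0.16 (quasi-likelihood, TMM, filterByExpr, Benjamini-Hochberg over all genes tested, threshold 0.05), with library as a block between quartiles and genotype alone otherwise. DESeq2 1.42.0 was an alternative, beside other filters, scalings, depths, divisions of the rods, the sexes as blocks and each library left out. The labels share only sex between genotypes; female minus male differences of WT and NLGF rods had r = 0.114 over 8230 autosomal genes, and 1 pair per sex does not show pairing. In simulated counts 200 genes were changed per comparison. The quartile test recovered 65.7%, 88.1% and 100% of genes changed 1.5, 2 and 4 times (10173 genes, 6 of 175 calls on unchanged genes). The genotype test in rods recovered 50.7%, 82.1% and 100% (12212 genes, 7 of 162). Between the real quartiles 60.8% of genes passed, so the simulation does not show how the quartile test performs when most genes differ.

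Named genes were the 8 members, up to 3 of each other list with the largest log2 fold change past the threshold, the 3 genes most like each member by r among those with a mean of at least 10 CPM, and Malat1. The overlapping genes and the top genes of the rod cluster were named after their values were seen. Some genes that this rule names are not reported here. The members and the lists were chosen with earlier results of these data known.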

Additional observations from a re-analysis of the deposited data

Results flagged for a closer look

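Adgrv1 and Syne2 differed in opposite directions between genotypes in the females and in the males. In rods Adgrv1 was higher in the NLGF than in the WT female by 0.35 on the log2 scale of CPM, and lower in the NLGF than in the WT male (-0.12). Syne2 had 0.34 between the females and -0.18 between the males. Each value rests on 1 library per sex and genotype, the difference between the sexes was not tested, and the WT male also had the largest share (21.1%) of the rod cluster in which both genes were high, the WT female the smallest (2.91%).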

How the results depend on the processing

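Between quartiles, 12 of 16 alternatives gave 5 or 6 members higher and 2 lower; without the library block it was 5 and 2. Rods under 1000 UMIs gave 1 higher and 1 lower, with Rpgrip1 at -0.034, Cep290 -0.14, Adgrv1 -0.30, Cep164 -0.044 and Rpgr -0.049, and library totals gave 1 lower with Syne2 at 0.13. Leaving out a library gave 4 to 5 higher and 2 lower. All genes called numbered 134 in rods under 1000 UMIs against 6354.

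For genotype, 4 of 138 fits under alternatives called a member. In rods, leaving out 1 library gave 0 to 1 member lower and 0 to 1 higher, with ranges of 0.11 to -0.020 for Rpgrip1, 0.17 to -0.060 for Cep290, 0.29 to -0.18 for Adgrv1 and 0.31 to -0.27 for Syne2, and 22 to 963 genes called against 1. Syne2, near 0, was 0.021 with sex as a replicate block, 0.0011 with doublets kept, 0.087 in rods with at least 1000 UMIs, 0.0020 with a mitochondrial cap of 30%, 0.054 without the rod cluster led by members and 0.058 on library totals. In rods under 1000 UMIs Rpgrip1 had -0.090 and Adgrv1 -0.092. In the lowest quartile Rpgr was -0.20 to 0.056 with a library left out and 0.17 in rods under 1000 UMIs, where Rpgrip1 had -0.14 in the highest quartile and the differences of effect were 0.022 (Rpgrip1) and 0.090 (Rpgr). The unfiltered amacrine fit called 1 member lower, and microglia without 1 library 0 to 1 higher. With sex as a replicate block 179 genes passed in rods and no member did in any class or quartile. Over the alternatives, the genes called were 0 to 963 in rods (1 as reported), 0 to 31 in the lowest quartile (5), 0 to 267 in the highest (0), 0 to 154 for the difference of effect (1), 0 to 66 in cones (0), 0 to 37 in rod bipolar (0), 0 to 41 in cone bipolar (3), 0 to 65 in amacrine cells (1), 33 to 284 in Müller glia (108), 3 to 39 in endothelial cells (5) and 0 to 74 in microglia (0). Levels moved by more than 1 SD in 32 cases and by less in 160. The cause of these shifts was not tested. Endothelial cells and microglia had 12 to 29 cells per library, and what could be detected there was not measured.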
